A study of Danio rerio with 8 samples.

Results

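The genes described here encode the folding and export machinery of the endoplasmic reticulum (ER), the compartment in which secreted and membrane proteins are made. They were chosen by name, with earlier results of these data known. The names cover disulfide isomerases, lumenal chaperones, and subunits of the translocon, signal peptidase, oligosaccharyltransferase, COPII coat and TMED cargo receptors. Such a name is carried by 58 of the 32520 genes listed. The 56 of them averaging at least 1 TPM (a transcript abundance per length, given as a share of its library) are followed. Expression was measured by RNA sequencing of whole zebrafish larvae at 2 days of age. There were 4 libraries of untreated maternal zygotic homozygotes for the sa24730 allele of nphp8 and 4 of untreated controls, which the labels call WT and the series' design text calls siblings. Larvae per library, the clutches they came from and the batch of collection are not stated, so p-values measure only the spread between these libraries, which may be technical. The descriptions of the controls conflict, because a sibling by the same homozygous mother would carry the allele and not be WT. Which description holds is not known here. The controls' genotype and mothers are therefore uncertain, and maternal origin cannot be told apart from the larvae's own genotype.

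A new secretory protein enters the ER through the SEC61 channel, aided by the TRAP complex (the SSR genes), and loses its signal peptide to the signal peptidase (the SPCS genes). The oligosaccharyltransferase attaches a glycan, HSPA5, HSP90B1 and the lectins calreticulin and calnexin fold the chain, and the disulfide isomerases set its cysteine bonds. Folded cargo is packed by TMED receptors into vesicles coated with COPII (SEC23, SEC24 and SEC31). Cells raise many of these genes through the unfolded protein response when folding fails, and professional secretory tissues hold high levels of them.

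The mutated gene checked the labels. Known here as RPGRIP1L (ENSDARG00000051754), which encodes a component of the ciliary gate, it stood at 0.75, 0.72, 0.77 and 0.78 TPM in the mutant libraries, against 2.75, 2.6, 2.26 and 2.17 TPM in the controls. The groups do not overlap, and the difference reached the smallest p that an exact permutation test over 70 assignments can give (two-sided p = 0.0286). Depth is unknown, because TPM carries no read counts. Markers of the tissues of a larva, from muscle and blood to lens, neurons, skin and hatching gland, were detected in every library. The liver marker fabp10a was listed at 0 in 7 of the 8 libraries.

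Many ER genes were lower in the mutants and none passed as higher. Of the 56 tested, 32 fell (57.1%) and 24 did not pass, by limma on log2(TPM + 1) with Benjamini-Hochberg adjustment over all 16560 genes tested and a threshold of 0.05. Over all genes tested 13.3% fell and 9.32% rose, 22.6% in either direction. ER genes are abundant, and calls are more frequent among abundant genes. At 20 TPM or more, 28 of 42 ER genes fell and 0 rose, beside 23.4% lower and 13.8% higher among all genes of that level. The median log2 change was -0.15 for the 56 ER genes and -0.01 for all genes tested.

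The decreases were small. Among the 32 genes that fell, mean TPM was lower by between 6.75% and 31.9%, with a median of 15.1%. For 34 ER genes every mutant library lay below every control library, and for 0 every mutant library lay above, where 14.8% and 11.3% of all genes tested did so. The 24 that did not pass had log2 changes between -0.32 and 0.11. The summed level of the 56 genes was 4992.5, 5069.6, 5079.4 and 4961.2 TPM in mutants, against 5820.2, 5741.8, 5789.7 and 5861.5 TPM in controls, a ratio of 0.866. In these whole-larva libraries, fewer secretory cells and less of a transcript per cell cannot be told apart.

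**Figure D1:**
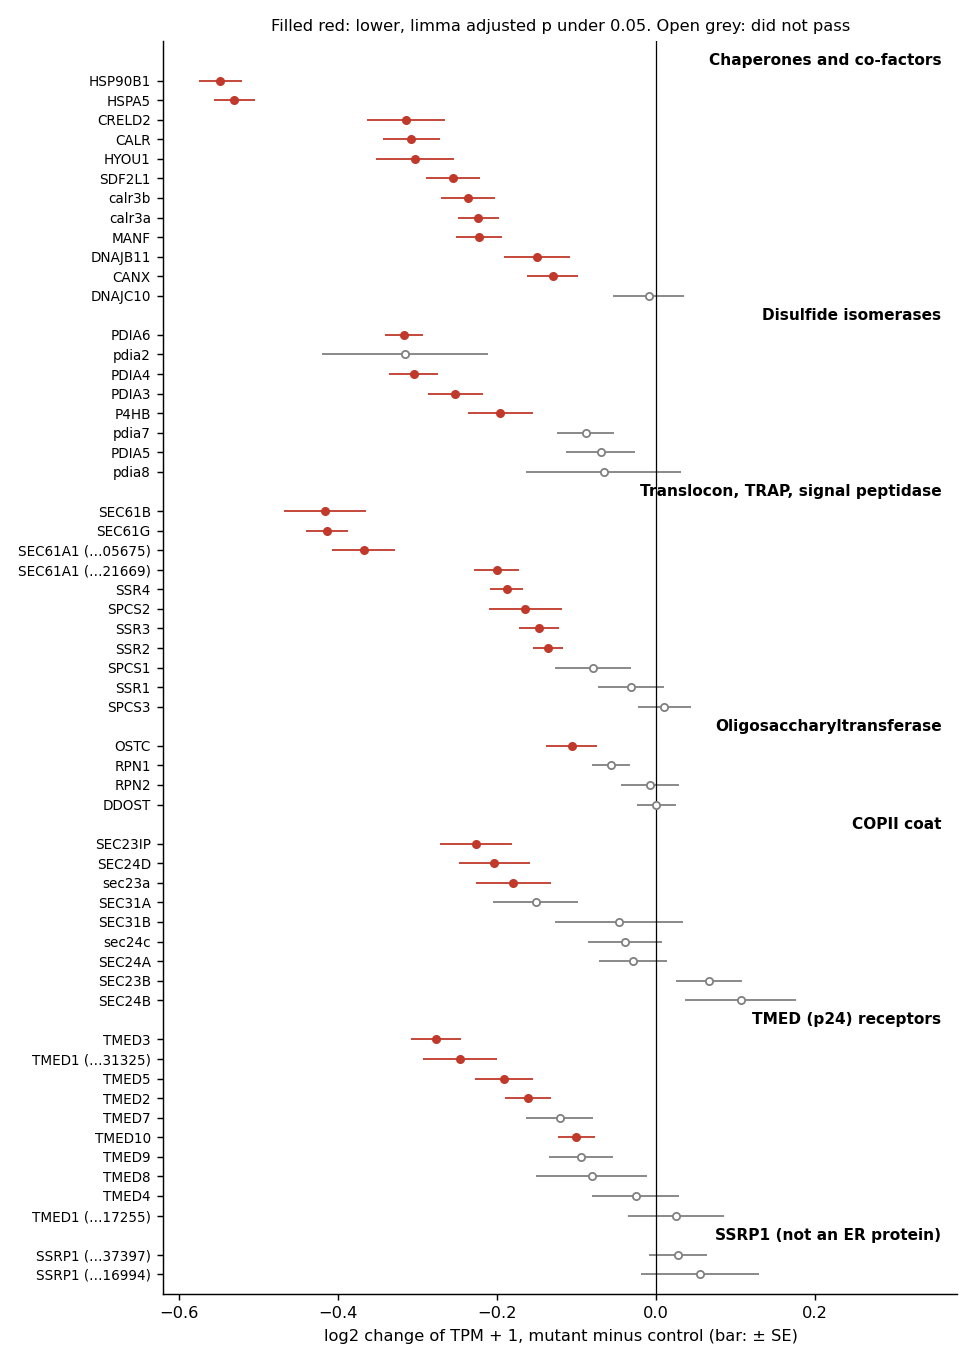
Log2 change of TPM + 1, mutant minus control, for the 56 ER genes grouped by role, with bars of ± SE over 4 libraries a group. Filled red points fell by limma (adjusted p under 0.05) and open grey points did not pass. HSP90B1 and HSPA5 lie farthest left, SEC61B and SEC61G next, and DDOST and SPCS3 at 0. Copies with the same symbol are told apart by the end of their Ensembl identifier.

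Chaperones had the highest share of lower genes, 11 of 12, where 13.3% of all genes tested and 23.4% at 20 TPM or more fell. HSPA5 (ENSDARG00000103846), the BiP chaperone that binds unfolded chains and holds the stress sensors silent, stood at 135.99, 130.08, 129.75 and 136.5 TPM in mutants. In controls it stood at 193.96, 189.28, 196.15 and 191.2 TPM. The highest mutant library lay far below the lowest control, and the log2 change was -0.53 (SE 0.0256, limma adjusted p = 7.65e-07). HSP90B1 (ENSDARG00000003570), the HSP90 of the ER lumen, stood at 91.91, 96.3, 92.23 and 96.21 TPM in mutants, against 134, 138.26, 140.19 and 140.26 TPM in controls. Its libraries were as clearly separated, with a log2 change of -0.55 (SE 0.027, adjusted p = 8.94e-07).

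The calreticulins, lectin chaperones that bind calcium and monoglucosylated glycans, fell by smaller amounts. The copy named CALR (ENSDARG00000076290) stood at 43.68, 46.44, 42.44 and 45.45 TPM in mutants, against 55.72, 53.33, 57.04 and 55.12 TPM in controls, a log2 change of -0.31 (SE 0.0356, adjusted p = 0.000243). The most abundant chaperone gene, calr3a (ENSDARG00000103979), averaged 187 ± 3.68 TPM in mutants and 218 ± 5.53 TPM in controls (SD, n = 4 each). The third copy, calr3b (ENSDARG00000102808), averaged 42.1 ± 1.26 TPM in mutants and 49.8 ± 1.76 TPM in controls. All 3 were separated between the groups, and how RSEM divides reads among similar copies adds an uncertainty that the spread does not show. Their membrane-bound relative CANX (ENSDARG00000037488), calnexin, changed less, with 112 ± 4.7 TPM in mutants and 123 ± 2.39 TPM in controls (limma adjusted p = 0.0174).

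CRELD2 (ENSDARG00000029071), a lumenal factor induced by ER stress, stood at 15.16, 14.51, 13.27 and 14.68 TPM in mutants, against 18.88, 17.04, 18.21 and 18.48 TPM in controls. Its log2 change was -0.31 (SE 0.0494, limma adjusted p = 0.00157). HYOU1, the nucleotide exchange factor of HSPA5, fell by 19.4%, SDF2L1, which works with HSPA5 and its co-chaperones, by 16.7% and the secreted stress factor MANF by 14.7%. For each of these 4 genes all mutant libraries lay below all controls. DNAJB11, a J-domain co-chaperone of HSPA5, fell by 10.1% (limma adjusted p = 0.0281), but without any of control replicates 2, 3 or 4 or mutant replicates 1 or 3 it did not pass (adjusted p 0.0608 to 0.0761). DNAJC10, a J-domain protein that reduces disulfides before degradation, was the chaperone that did not pass, at 15.3 ± 0.736 TPM in mutants and 15.4 ± 0.517 TPM in controls (SD, n = 4 each; adjusted p = 0.909).

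**Figure D2:**
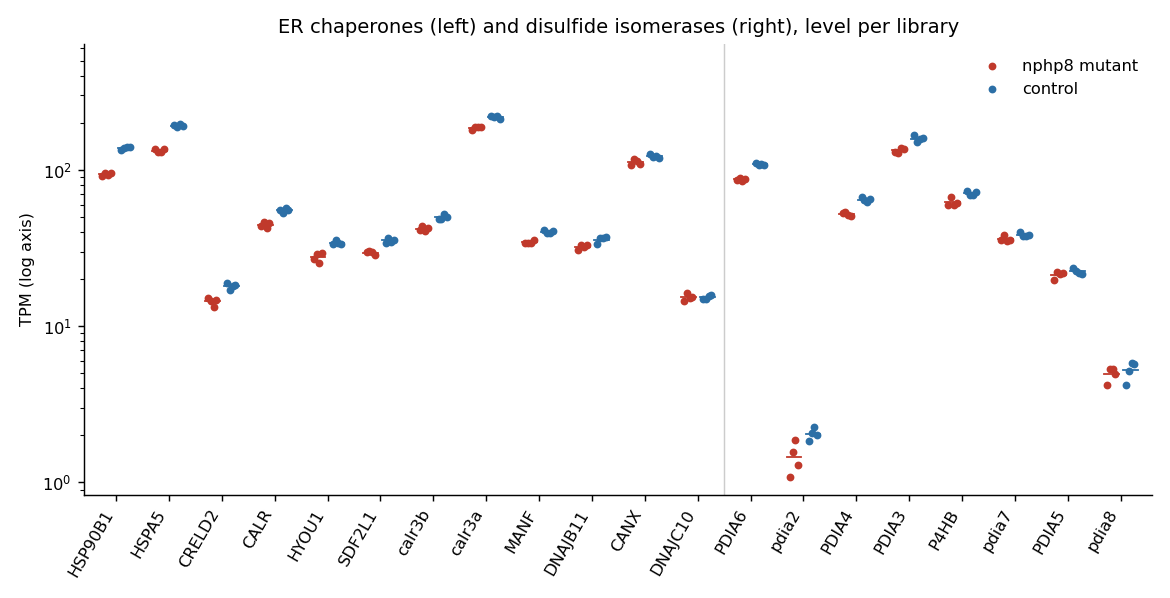
TPM (log axis) of each of 12 chaperone genes (left) and 8 disulfide isomerase genes (right) in the 4 mutant (red) and 4 control (blue) libraries, with lines at the group means, ordered by log2 change within each role. The red and blue points of HSPA5 and HSP90B1 stand clear of each other, and those of DNAJC10 overlap. The gene pdia2 sits lowest, at 1.09 to 2.25 TPM, with the widest relative spread among mutant libraries.

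Of 8 disulfide isomerase genes, which form and rearrange cysteine bonds, 4 fell and 4 did not pass. The share lower was 13.3% among all genes tested and 23.4% among those averaging at least 20 TPM. PDIA6 (ENSDARG00000009001) stood at 86.21, 89.04, 84.82 and 87.69 TPM in mutants, against 110.06, 107.43, 108.81 and 107.85 TPM in controls. That is a log2 change of -0.32 (SE 0.024, limma adjusted p = 1.4e-05), with no overlap. PDIA4 (ENSDARG00000018491) stood at 52.82, 53.47, 51.28 and 51.04 TPM in mutants, against 66.98, 64.62, 62.06 and 65.05 TPM in controls (log2 change -0.30, adjusted p = 0.000108). PDIA3 (ENSDARG00000102640), the isomerase that works with calnexin and calreticulin and the most abundant of the family here, averaged 133 ± 3.82 TPM in mutants and 159 ± 7 TPM in controls (adjusted p = 0.000754). P4HB (ENSDARG00000105116), also a subunit of the collagen prolyl hydroxylase, averaged 62.2 ± 3.54 TPM in mutants and 71.3 ± 2.04 TPM in controls (adjusted p = 0.00762).

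The pancreas-type isomerase gene pdia2 (ENSDARG00000018263) was the least abundant ER gene that met the level rule. Its levels were 1.09, 1.57, 1.87 and 1.29 TPM in mutants, against 1.83, 2.06, 2.25 and 2.01 TPM in controls. The groups overlap through mutant replicate 3, and the log2 change of -0.32 (SE 0.105) just missed the threshold (limma adjusted p = 0.0563). It passed without mutant replicate 3 (adjusted p = 0.0228). PDIA5, pdia7 and pdia8 differed from controls in mean TPM by -4.87%, -6.09% and -5.54%, with overlapping libraries, and did not pass, although pdia7 did without mutant replicate 2 (adjusted p = 0.0482). Below the level rule were the oxidase gene ERO1A (ENSDARG00000015228), which reoxidises the isomerases, at 0.19 to 0.63 TPM in mutants and 0.42 to 0.72 TPM in controls, and tmed6. The level of tmed6 was far below it, at 0 to 0.12 TPM in mutants and listed at 0 in every control. Neither was tested.

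Of 11 genes for entry into the ER, 8 fell and 3 did not pass, beside 13.3% lower among all genes tested and 23.4% at 20 TPM or more. The largest decreases were in the SEC61 channel itself. SEC61G (ENSDARG00000018637), the small γ subunit and the most abundant of the 56 ER genes, stood at 645.3, 647.8, 676.74 and 622.96 TPM in mutants. In controls it stood at 876.88, 842.64, 863.59 and 872.73 TPM, a log2 change of -0.41 (SE 0.0265, limma adjusted p = 4.75e-06). SEC61B (ENSDARG00000076568), the β subunit, stood at 192.13, 192.7, 209.14 and 192.56 TPM in mutants, against 272.99, 235.19, 265.19 and 279.37 TPM in controls (log2 change -0.42, SE 0.0519, adjusted p = 0.000385). Both were lower by about the same share, 25.0% for SEC61G and 25.3% for SEC61B.

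The pore-forming α subunit has 2 copies under the name SEC61A1. The rarer copy (ENSDARG00000005675) stood at 22.04, 21.91, 21.87 and 20.14 TPM in mutants, against 28.62, 27.53, 27.06 and 28.84 TPM in controls, a log2 change of -0.37 (SE 0.0398, limma adjusted p = 0.000161). The abundant copy (ENSDARG00000021669) stood at 155.2, 165.32, 159.54 and 153.05 TPM in mutants, against 181.16, 180.31, 179.33 and 186.88 TPM in controls, a log2 change of -0.20 (SE 0.0284, adjusted p = 0.000874). Neither copy's groups overlap. Within a library the log2 ratio of the abundant to the rare copy averaged 2.82 ± 0.0487 in mutants and 2.66 ± 0.027 in controls (SD, n = 4 each). The ratios did not overlap, which is the smallest exact permutation p (0.0286, two-sided). Adjusted over the 10 pairs of copies compared it did not pass (adjusted permutation p = 0.0952). No pair could pass this adjustment unless most pairs reached that smallest p. The outcome therefore cannot show whether the copies changed alike.

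The TRAP complex, which helps some signal sequences open the channel, fell in 3 of its 4 subunits. SSR4 averaged 228 ± 2.69 TPM in mutants and 259 ± 4.43 TPM in controls, SSR3 323 ± 7.37 TPM in mutants and 358 ± 9 TPM in controls, and SSR2 360 ± 4 TPM in mutants and 396 ± 4.84 TPM in controls (SD, n = 4 each). The limma adjusted p of these 3 reached 0.00274 at most. SSR1 overlapped, at 253 ± 6.91 TPM in mutants and 259 ± 15.7 TPM in controls (adjusted p = 0.637).

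Of the signal peptidase subunits SPCS2 (ENSDARG00000042823) fell. It stood at 83.35, 94.57, 87.98 and 90.44 TPM in mutants, against 100.91, 107.15, 95.59 and 96.14 TPM in controls, so that the highest mutant and the lowest control nearly touch (limma adjusted p = 0.0299). Without any of control replicates 1 or 2 or mutant replicates 1, 3 or 4 it did not pass (adjusted p 0.0503 to 0.0747). SPCS1 and SPCS3 overlapped between the groups and did not pass, with differences in mean TPM of -5.26% for SPCS1 and 0.853% for SPCS3.

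**Figure D3:**
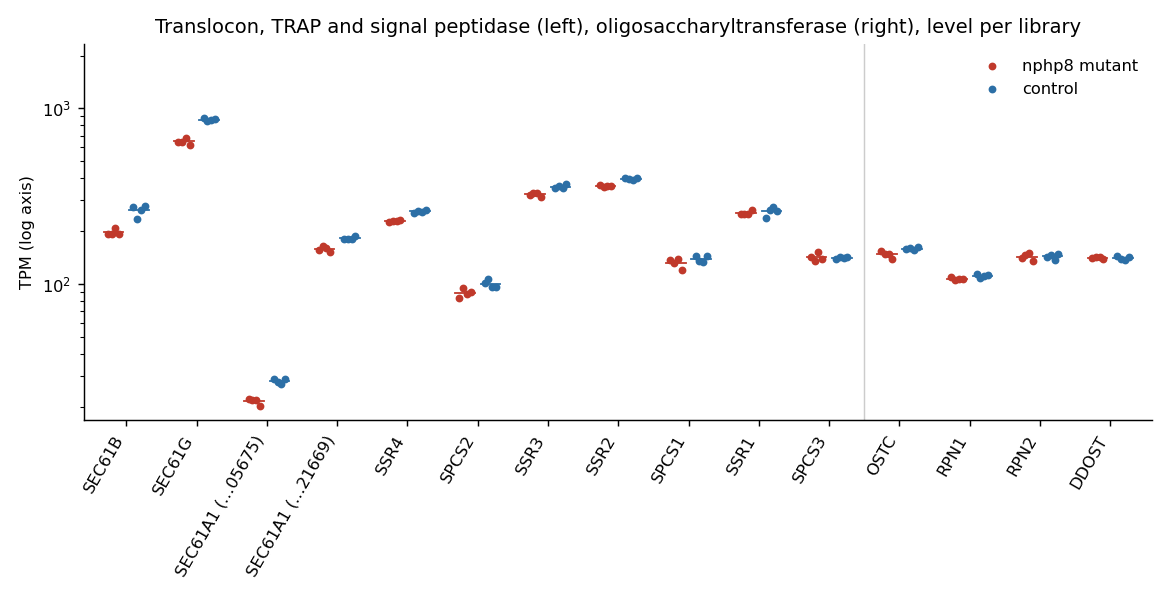
TPM (log axis) of 11 translocon, TRAP and signal peptidase genes (left) and 4 oligosaccharyltransferase genes (right) in the 4 mutant (red) and 4 control (blue) libraries, with lines at the group means. SEC61B, SEC61G and both SEC61A1 copies are lower in every mutant library, whereas the points of SSR1, SPCS3, RPN2 and DDOST overlap.

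The oligosaccharyltransferase glycosylates chains as they emerge from the channel, and its 4 genes under the name rule gave little difference. Of these 4 genes 1 fell (25.0%), near the 23.4% lower among all genes averaging at least 20 TPM. It was OSTC (ENSDARG00000104901), a subunit of the form of the enzyme that sits at the translocon. Its levels were 154.21, 148.51, 148.61 and 139.1 TPM in mutants, against 157.38, 160.78, 155.63 and 161.56 TPM in controls (log2 change -0.11, SE 0.0319, limma adjusted p = 0.0388). The gap between the groups is narrow. Leaving out any library but mutant replicate 1 ended the call (adjusted p 0.0507 to 0.0957). It was also lost after both rescalings of the libraries, with no filter on low levels and without the mean-variance trend (adjusted p 0.0579 to 0.104). The core subunit genes RPN1, RPN2 and DDOST had log2 changes of -0.06 (SE 0.024), -0.01 (SE 0.0364) and 0.00 (SE 0.0245), and did not pass. Their group means lay between 107 and 144 TPM.

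Of 9 genes in the COPII group, 3 fell (33.3%) and 6 did not pass, beside 13.3% lower among all genes tested and 23.4% at 20 TPM or more. The group counts SEC23IP, a partner of SEC23 caught by its name, beside the coat subunits. The cargo-selecting subunit gene SEC24D (ENSDARG00000045946), whose loss in zebrafish impairs collagen export and craniofacial cartilage, stood at 10.98, 11.16, 10.48 and 11.56 TPM in mutants. In controls it stood at 13.19, 13.02, 13.1 and 12.15 TPM (log2 change -0.20, SE 0.0452, limma adjusted p = 0.0103). The inner coat gene sec23a (ENSDARG00000104230), also known for collagen export in fish, stood at 18.78, 20.94, 20.35 and 18.74 TPM in mutants, against 22.63, 23.2, 21.18 and 22.7 TPM in controls (log2 change -0.18, adjusted p = 0.0217). Without any of control replicates 1, 2 or 4 or mutant replicates 1 or 4 sec23a did not pass (adjusted p 0.0504 to 0.0609). SEC23IP (ENSDARG00000061413), which binds SEC23 at ER exit sites, averaged 13.4 ± 0.298 TPM in mutants and 15.9 ± 0.879 TPM in controls (SD, n = 4 each; adjusted p = 0.00618).

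The other inner coat gene, SEC23B (ENSDARG00000019360), was the most abundant of the COPII genes and did not pass, at 33.84, 29.73, 30.88 and 30.47 TPM in mutants and 29.71, 29.29, 30.45 and 29.46 TPM in controls. SEC24A, SEC24B, sec24c and SEC31B overlapped between the groups. The outer coat gene SEC31A was lower in every mutant library, at 9.58 to 11.17 TPM against 11.31 to 12.2 TPM in controls, yet did not pass (adjusted p = 0.0709). The within-library log2 ratio of SEC23B to sec23a averaged 0.64 ± 0.141 in mutants and 0.39 ± 0.078 in controls (SD, n = 4 each; exact permutation p = 0.0571, adjusted over 10 pairs 0.0952). That of SEC24D to sec24c averaged 0.00 ± 0.0281 in mutants and 0.16 ± 0.0616 in controls (exact permutation p = 0.0286, adjusted 0.0952). Neither difference passed over the pairs, an adjustment that no pair could pass unless most pairs reached the smallest p.

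Of 10 TMED genes, most of which encode p24 proteins that gather cargo for COPII and COPI vesicles, 5 fell and 5 did not pass. Among all genes tested 13.3% fell, and 23.4% at 20 TPM or more. TMED3 (ENSDARG00000028816) stood at 56.26, 57, 54.31 and 52.99 TPM in mutants, against 65.53, 66.43, 69.08 and 66.99 TPM in controls (log2 change -0.28, SE 0.0313, limma adjusted p = 0.00021). TMED2 (ENSDARG00000026908), the most abundant of them, stood at 139.47, 143.19, 131.19 and 139.76 TPM in mutants, against 156.09, 154.18, 156.71 and 152.31 TPM in controls (adjusted p = 0.00341). TMED5 (ENSDARG00000008765) averaged 23.2 ± 0.688 TPM in mutants and 26.6 ± 0.881 TPM in controls, and TMED10 119 ± 1.01 TPM in mutants and 127 ± 2.56 TPM in controls (SD, n = 4 each). All 4 genes were separated between the groups.

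The 2 gene copies named TMED1 gave different calls. The rarer copy (ENSDARG00000031325) stood at 6.8, 7.41, 7.19 and 7.46 TPM in mutants, against 8.88, 8.45, 8.78 and 8.85 TPM in controls (limma adjusted p = 0.00435). The other (ENSDARG00000017255) stood at 14.21, 13.12, 14.92 and 14.6 TPM in mutants, against 13.38, 15.29, 14.39 and 12.79 TPM in controls (adjusted p = 0.803). The within-library log2 ratio of the abundant to the rare copy averaged 0.89 ± 0.101 in mutants and 0.62 ± 0.133 in controls (exact permutation p = 0.0571, adjusted over 10 pairs 0.0952). The difference between copies did not pass before or after adjustment. With 4 libraries a group this cannot show whether the copies changed alike. TMED7 (ENSDARG00000046022) did not pass at 47.37 to 48.84 TPM in mutants and 49.16 to 56.19 TPM in controls (limma adjusted p = 0.0638), but did without control replicate 4 (adjusted p = 0.0276). TMED4, TMED8 and TMED9 overlapped between the groups.

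The name rule also caught both copies of SSRP1, a subunit of a histone chaperone in the nucleus with no role in the ER. The abundant copy (ENSDARG00000037397) averaged 76.3 ± 2.66 TPM in mutants and 74.8 ± 2.98 TPM in controls, and the rare copy (ENSDARG00000016994) 2.71 ± 0.141 TPM in mutants and 2.57 ± 0.274 TPM in controls (SD, n = 4 each). Neither passed, and without them 32 of 54 genes (59.3%) fell.

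Other genes of the pathway, in 8 lists, fell in smaller shares than the chaperones and the translocon, a difference that was not tested. Of 174 tested, 64 fell (36.8%), 5 rose (2.87%) and 105 did not pass, with a median log2 change of -0.09. Over all genes tested 13.3% fell and 9.32% rose, and at 20 TPM or more 23.4% fell and 13.8% rose. The lumenal folding factors came highest of the 8 lists, with 19 of 37 lower and 2 higher. Among them dnajc3a (ENSDARG00000041110), a co-chaperone of HSPA5 that the name rule does not cover, stood at 9.97, 9.5, 8.77 and 8.4 TPM in mutants, against 13.01, 14.19, 14.36 and 15.4 TPM in controls. Its log2 change of -0.59 (SE 0.064, limma adjusted p = 0.000172) was close in size to those of HSPA5 and HSP90B1. A copy of the thioredoxin-like gene TMX2 (ENSDARG00000079122) fell by 0.48 on the log2 scale, while the more abundant copy (ENSDARG00000007786) averaged 18.3 ± 0.782 TPM in mutants and 18 ± 0.799 TPM in controls and did not pass (adjusted p = 0.773). The difference between these copies was not tested.

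The 2 folding factors that rose were CLGN and QSOX1. CLGN (ENSDARG00000009315), calmegin, is a relative of calnexin known in mammals as a chaperone of the testis. It stood at 31.96, 32.52, 29.9 and 32.31 TPM in mutants, against 24.92, 26.3, 25.32 and 24.37 TPM in controls (log2 change 0.32, SE 0.0382, limma adjusted p = 0.000316). All mutant libraries lay above all controls, the reverse of CANX. QSOX1, a sulfhydryl oxidase of the late secretory pathway, averaged 10.8 ± 0.532 TPM in mutants and 8.8 ± 0.484 TPM in controls (SD, n = 4 each; adjusted p = 0.00539).

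Of 10 sensor and transcription factor genes of the unfolded protein response that were tested, 4 fell and 0 rose. Among all genes tested 13.3% fell and 9.32% rose. The sensor kinase gene ern1 (IRE1) stood at 3.4, 4.04, 2.88 and 3.16 TPM in mutants, against 5.04, 5.08, 4.68 and 4.97 TPM in controls (limma adjusted p = 0.00357). EIF2AK3 (PERK) stood at 9.83, 9.5, 8.79 and 9.06 TPM in mutants, against 12.49, 13.6, 11.89 and 12.22 TPM in controls (adjusted p = 0.000643). The remaining decreases, picked with their values known, were in atf6, the membrane-bound factor cleaved under stress, and XBP1, the factor that IRE1 activates by splicing. XBP1 stood at 199.61, 209.12, 195.18 and 214.27 TPM in mutants, against 232.03, 237.68, 229.3 and 235.72 TPM in controls. Its spliced form is not told apart in these gene-level values. In the opposite direction creb3l3a, a membrane-bound transcription factor also chosen after its values were seen, stood at 2.34, 2.27, 1.91 and 2.04 TPM in mutants, against 1.19, 1.79, 1.84 and 1.34 TPM in controls. All its mutant libraries lay above all controls, and it narrowly missed the threshold (log2 change 0.31, limma adjusted p = 0.0528).

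In ER-associated degradation, which returns misfolded proteins to the cytosol, 9 of 28 genes fell and 1 rose, beside 13.3% and 9.32% of all genes. The lectin gene os9 averaged 14 ± 0.782 TPM in mutants and 18.7 ± 1.07 TPM in controls, and the stress-induced HERPUD1 16.3 ± 0.494 TPM in mutants and 20.3 ± 1.36 TPM in controls (SD, n = 4 each; limma adjusted p at most 0.0023). NPLOC4, a cofactor of the extracting ATPase, rose 1.15-fold (adjusted p = 0.0186), a call lost without mutant replicate 1 or 4. Of 29 other translocation and signal peptide genes 11 fell and 1 rose: TRAM2, a translocon-associated protein, fell to a ratio of 0.788, and MMGT1, of the ER membrane insertase, rose 1.09-fold, a call lost without the mean-variance trend and without any of control replicates 1, 2 or 3 or mutant replicates 2 or 3.

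EMC4 (ENSDARG00000039268), of the same insertase, had the largest log2 change in these lists and is not a stable value. It was listed at 2.9, 0.86, 2.42 and 1.9 TPM in mutants and at 126.17, 0.81, 112.01 and 58.34 TPM in controls. Control replicate 2 lies at the level of the mutants. The call (limma adjusted p = 0.0481) held under 4 of 16 alternatives, and leaving out any library but control replicate 2 ended it.

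In the remaining lists between 14.3% and 37.1% fell, beside 13.3% of all genes tested and 23.4% of those averaging at least 20 TPM. The list of glycan trimming and the calnexin cycle, which also holds cargo receptors, had 2 of 14 lower and 0 higher. Those that fell were the ER-Golgi cargo receptor LMAN1 (ratio 0.841) and its partner MCFD2 (ratio 0.882), whose call held under 5 of 16 alternatives. The glycan-processing genes of the list did not pass. The other oligosaccharyltransferase subunits had 2 of 8 lower, the small subunits OST4 (ratio 0.825) and TMEM258 (ratio 0.863), while the catalytic STT3A and STT3B did not pass. Among other ER exit factors 13 of 35 fell and 1 rose. The scaffold gene sec16b averaged 1.96 ± 0.168 TPM in mutants and 2.97 ± 0.262 TPM in controls, both copies of the SNARE gene SEC22B fell, to ratios of 0.749 (ENSDARG00000030108) and 0.82 (ENSDARG00000100435), and the cargo receptor gene CNIH1 rose 1.14-fold. The COPI coat, which returns escaped ER proteins, had 4 of 13 lower and 0 higher, with COPE at a ratio of 0.906 and a copy of ARCN1 (ENSDARG00000002792) at 0.876.

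**Figure D4:**
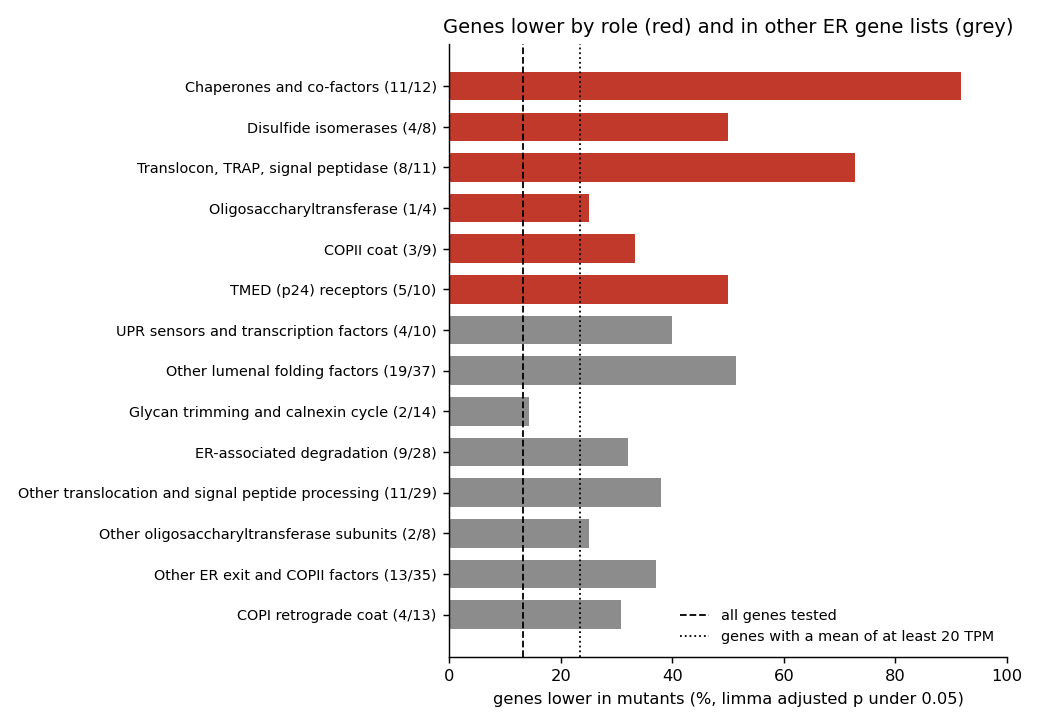
Percent of the genes tested that fell in mutants (limma adjusted p under 0.05), for the 6 roles of the ER genes (red) and the 8 other ER lists (grey), with the number lower and tested in brackets. Lines mark the share lower among all genes tested (13.3%, dashed) and among those averaging at least 20 TPM (23.4%, dotted). Chaperones reach 91.7%. The glycan trimming list, whose lower genes are a cargo receptor and its partner, lies near the dashed line.

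Markers of some secretory tissues moved the same way and others the opposite way, and their part in the result was not tested. Beside the marker counts, 13.3% of all genes tested fell and 9.32% rose, and of those averaging at least 20 TPM 23.4% fell and 13.8% rose. Of 9 hatching gland names 7 were matched, and 5 of 7 genes tested fell and 0 rose. The summed hatching gland level was 5027 to 5214 TPM in mutants and 5682 to 5879 TPM in controls, a ratio of 0.877. Exocrine pancreas markers, with 9 of 13 names matched, summed to only 11.6 to 15.4 TPM in mutants and 18.5 to 23.6 TPM in controls. Of the 3 tested 2 fell, the trypsin genes prss59.1 and prss59.2 were at or near 0, and a CELA1 copy was listed at 0 in every library. Epidermal markers, all 8 matched, had 4 of 8 lower and 1 higher, with a summed ratio of 0.93.

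Matrix-secreting markers and the joint list for liver and yolk syncytial layer were not lower as lists. Of 6 notochord and sheath genes 0 fell and 2 rose (summed ratio 1.08), and of 5 cartilage and fibroblast genes tested 0 fell and 2 rose (1.05). Of 13 liver and yolk syncytial layer genes 1 fell and 7 rose (1.04). The share that rose was 9.32% of all genes tested and 13.8% of those averaging at least 20 TPM. Of the names in these lists, 6 of 11 were matched for notochord, 6 of 10 for cartilage and 14 of 14 for liver and yolk syncytial layer. For muscle 5 of 11 were matched, for erythroid 6 of 9, for lens 7 of 9 and for neuronal markers 4 of 8. Muscle (5 of 5 higher, ratio 1.16), erythroid (5 of 6 higher, 1.63), lens (7 of 7 higher, 1.52) and neuronal markers (4 of 4 higher, 1.09) took a larger share of the TPM in mutants. Because TPM is a share of the library, a gain there lowers the values of other genes, and its part in the ER decrease was not tested. After median-of-ratios rescaling 31 ER genes fell and 0 rose, beside 1943 lower and 1800 higher over all genes. After a rescaling that left out mitochondrial transcripts and the top 50 genes 29 ER genes fell and 0 rose, beside 1789 lower and 1843 higher over all genes. The factors of this rescaling were 0.988 to 0.998 in mutants and 1.003 to 1.013 in controls. The main fit had 2202 lower and 1543 higher.

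**Figure D5:**
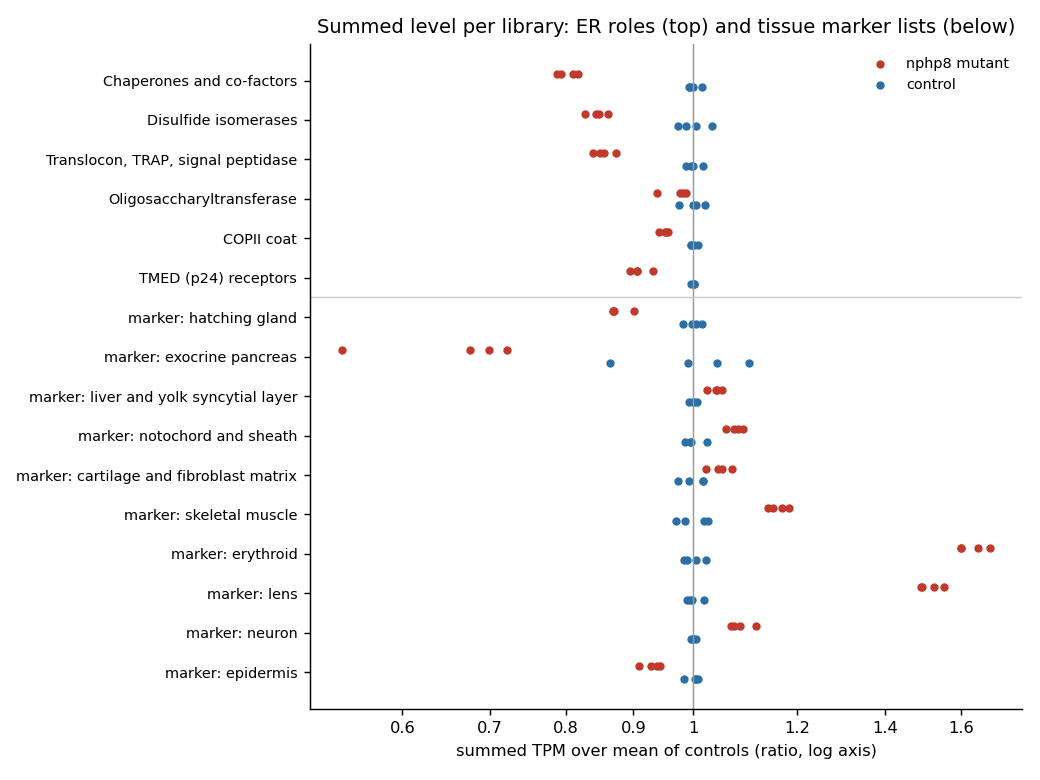
Summed TPM of the ER genes of each role (top) and of the tissue marker lists (below) in each library, as a ratio to the control mean (log axis), with mutants in red above controls in blue. Mutant sums of chaperones, isomerases, translocon, COPII and TMED genes lie left of all controls, and those of the oligosaccharyltransferase overlap. Hatching gland, exocrine pancreas and epidermis sums also lie left. The other marker sums lie right of all controls, erythroid and lens farthest.

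By summed level the roles ran in an order. Chaperones summed to 766 ± 13.1 TPM in mutants and 956 ± 10.2 TPM in controls (SD, n = 4 each), a ratio of 0.801. The ratio was 0.845 for isomerases, 0.854 for the translocon group, 0.91 for TMED genes, 0.951 for COPII and 0.971 for the 4 oligosaccharyltransferase genes. The sum of these 4 genes overlapped, at 520.26 to 547.5 TPM in mutants and 540.87 to 566.3 TPM in controls. The sums of the other 5 roles did not. The 8 other subunits of that enzyme, listed separately, summed to 866.7 to 902.9 TPM in mutants and 944.5 to 1023 TPM in controls (ratio 0.901). A sum weighs its most abundant genes most. SEC61G alone averaged 648 of the 2552 TPM of the translocon group in mutants and 864 of 2989 TPM in controls. Median log2 changes were -0.25 for chaperones, -0.22 for isomerases and -0.16 for the translocon group. They were -0.11 for TMED genes, -0.05 for COPII and -0.03 for the 4 oligosaccharyltransferase genes. No test of a difference between roles was made.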

How the data were processed

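The authors deposited a table of TPM per Ensembl gene for 8 libraries; STAR 2.7.3a, RSEM 1.3.1 and GRCz11 are named in the submitters' processing notes. Strand and depth are not given in the sources used here. RSEM divides reads among similar copies by estimate, so copies that share a symbol are uncertain. Symbols came from a table matching 29201 of 32520 identifiers (89.8%).

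The 16560 genes averaging at least 1 TPM were tested with limma 3.58.1 in R 4.3.3 (lmFit, eBayes with trend, two-sided) on log2(TPM + 1), mutant minus control, with Benjamini-Hochberg adjustment; the log2 change understates changes of low genes. The fit was tested on simulated data. Ratios are of mean TPM. Exact permutation tests (Python 3.11.15, scipy 1.17.1) used 70 assignments; the 10 pairs of copies were chosen after levels were seen. Each role's 4 largest called changes, exceptions, most abundant gene and genes nearest the thresholds are named, with other members by value or range; in other lists, the 2 largest and exceptions. Members and lists were chosen with earlier results of these data known. Alternatives were pseudocounts 0.1 and 5, filters, rescaling, no trend, a replicate block and leaving out each library.

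No sequences are shown, as no sequence table or genome was used here.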

Additional observations from a re-analysis of the deposited data

Results flagged for a closer look

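Of 56 groups of 4 libraries examined, those of the 27 ER genes singled out and RPGRIP1L, 3 held a library far from the other 3, and chance alone gives about 1 in 20. SEC61B in mutant replicate 3 stood at 209.14 TPM, above 192.13 to 192.7 TPM in the other mutant libraries and below every control. The rarer SEC61A1 copy (ENSDARG00000005675) in mutant replicate 4 stood at 20.14 TPM, below 21.87 to 22.04 TPM in the others. SEC24D in control replicate 4 stood at 12.15 TPM, below 13.02 to 13.19 TPM in the other controls. The calls of SEC61B, this SEC61A1 copy and SEC24D held when each library was left out in turn.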

How the results depend on the processing

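Of the 32 ER genes that fell, 26 kept their call under every one of the 16 alternative fits, and all 32 kept their direction. The count of lower ER genes ran from 28 to 32 with a library left out, was 27 without the mean-variance trend, 30 with no filter, 32 among genes of at least 5 TPM and at pseudocounts of 0.1 and 5, and 29 without genes that share a symbol. The count of higher ER genes was 0 in every fit. By role the count with a library left out was 10 to 11 for chaperones, 4 to 5 for isomerases, 7 to 8 for the translocon group, 2 to 3 for COPII, 5 to 6 for TMED genes and 0 to 1 for the oligosaccharyltransferase. The last was also 0 without the trend, after both rescalings, with no filter and with the replicate block; the cause was not tested. CANX (adjusted p = 0.0565) and TMED10 (adjusted p = 0.063) did not pass without the trend, and DNAJB11 and SPCS2 (adjusted p 0.0541 to 0.0655) did not pass without the trend or after rescaling without mitochondrial and abundant genes, and SPCS2 (adjusted p = 0.0523) did not with no filter.

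Whether replicate numbers pair the libraries is not stated. Deviations of same-numbered libraries correlated at -0.1 to -0.03, and those of unlike numbers at -0.06 to 0.13, which shows no sign of pairing. With the replicate block 32 ER genes fell, among them pdia2 (adjusted p = 0.0481) but not OSTC (adjusted p = 0.0852), NPLOC4 and MMGT1 in the other lists lost their calls, and over the other ER lists 3 genes rose instead of 5. Those lists had 52 to 59 lower and 4 to 5 higher with a library left out, and over all genes 1700 to 2045 fell and 1209 to 1354 rose. Rescaling shifted that balance, with 1943 lower and 1800 higher after median-of-ratios, and without mitochondrial and abundant genes more rose (1843) than fell (1789). The log2 change of RPGRIP1L ran from -1.01 to -0.93 with a library left out, and was -1.57 at a pseudocount of 0.1 and -0.37 at 5; it has no value among genes of at least 5 TPM. Of the 10 pairs of copies, the difference in ratio turned to 0.00041 for SSRP1 and to -0.0013 for calr3a over calr3b at a pseudocount of 5; these pairs had no call, and that alternative was chosen after seeing the data. Depth is unknown, so no detection limit is given.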
